A study of Mus musculus with 4 samples.

Results

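Ms4a3 and 5 genes of neutrophil primary granules, Mpo, Elane, Prtn3, Ctsg and Ctsc, were followed across 4 Affymetrix arrays of sorted mouse bone marrow cells. They are 6 of the 19938 genes that had a probe set naming a single gene, and all 6 were measured. The genes were chosen by name, with earlier results of these data known, so their differences are a description first, and the tests are no independent support. The measured value used was the mean level over the 4 arrays, on which the brightest probe set of a gene was selected. Each of the 6 genes had 1 probe set, so that this step picked nothing among them. LSK cells are marrow cells without lineage markers that carry Sca-1 and Kit, among them stem cells and early multipotent progenitors. Hdac3 null LSK/Flt3- cells had 2 arrays and came from Vav-Cre/Hdac3Flox/- mice, in which the Vav promoter directs Cre to blood cells. Wild-type (WT) cells had 1 array of the LSK/Flt3- fraction and 1 of the LSK/Flt3+ fraction, and for these the labels name no Cre. All mice had the C57BL/6 background, no age is stated, and each array held RNA of cells sorted from a pool of 5 to 30 mice. Nothing says whether the null pools came from separate mice, so the p-values reflect the spread of these arrays alone, which may be technical.

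Azurophil, or primary, granules are the first granules that a neutrophil precursor makes, at the promyelocyte stage. Their enzymes are transcribed at the granulocyte-monocyte progenitor and promyelocyte stages, packed into granules as protein, and are no longer transcribed once the cell matures. Mpo encodes myeloperoxidase, the heme enzyme that makes hypochlorous acid. Elane, Prtn3 and Ctsg encode neutrophil elastase, proteinase 3 and cathepsin G, serine proteases that are made as inactive precursors. Ctsc encodes dipeptidyl peptidase 1, also called cathepsin C, the enzyme that trims these precursors into active proteases, and many other cells use it too. Ms4a3 encodes a membrane protein of granulocyte-monocyte progenitors.

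Values are log2 levels made with RMA, so a difference of 1 is a 2-fold difference, and they carry no call of presence or absence. The array medians over all probe sets lay between 5.30 and 5.60, with the higher one on null replicate 1. Hdac3 itself had levels of 5.71 and 5.04 on the null arrays, against 6.18 in WT LSK/Flt3- and 6.33 in WT LSK/Flt3+ cells, and the lower null values did not pass limma (adjusted p = 1 in both comparisons). No source used here places its probes relative to the deleted stretch, so this level is no check of the labels. Kit, which defines the gate, had levels of 10.77 and 10.36 in null cells, against 10.25 in WT LSK/Flt3- and 10.11 in WT LSK/Flt3+ cells, and Ly6a, which encodes Sca-1, was not analysed here.

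Of the 6 genes, 5 stood higher on both null arrays than on both WT arrays, namely Ms4a3, Mpo, Elane, Prtn3 and Ctsg. Ctsc stood lower on both null arrays than on both WT arrays. Among all 19938 genes, 23.0% had both null arrays above both WT arrays and 11.7% had both below. The median log2 difference of the 6 genes was 1.54 against WT LSK/Flt3- cells, where that of all genes was 0.09. It was 1.15 against WT LSK/Flt3+ cells, where that of all genes was 0.05. Both comparisons use the same null arrays. By limma over all genes, 1 of the 6 rose in each comparison, Ms4a3, and 0 fell. The background over all genes was 0.0201% called higher and 0.0% lower against WT LSK/Flt3- cells, and 0.0351% higher and 0.281% lower against WT LSK/Flt3+ cells. At an unadjusted p under 0.05, 5 of the 6 were higher against LSK/Flt3- cells, where 1.1% of all genes were. Against LSK/Flt3+ cells 4 were higher, with 1.13% of all genes, and Ctsc was lower, with 2.31% of all genes. In bulk samples, a difference in the number of cells of a type and a difference in RNA per cell cannot be told apart.

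**Figure D1:**
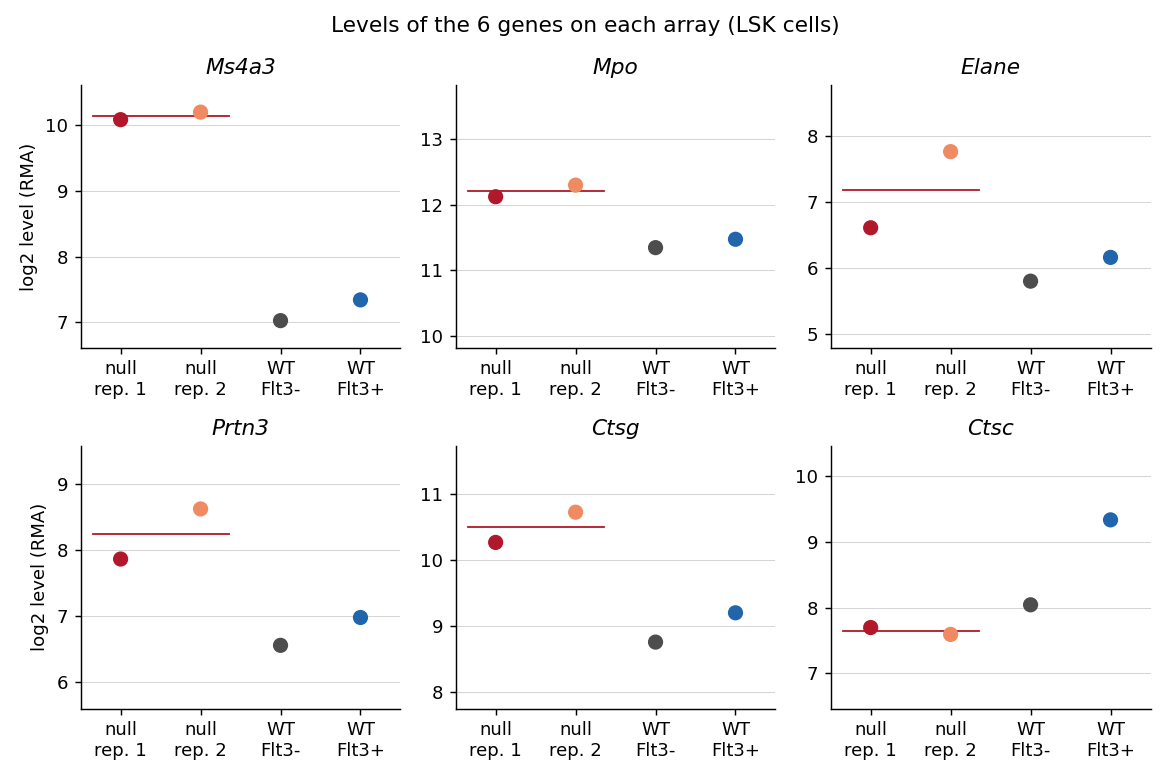
Log2 level (RMA) of each of the 6 genes on each array, with null replicates 1 and 2 left of the wild-type (WT) LSK/Flt3- and LSK/Flt3+ arrays. Each point is 1 array, the horizontal line is the mean of the 2 null arrays, and every panel spans 4 log2 units. Ms4a3, Mpo, Elane, Prtn3 and Ctsg are higher on both null arrays, and Ctsc is highest in WT LSK/Flt3+ cells at 9.34.

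On null replicates 1 and 2, Ms4a3 reached log2 levels of 10.08 and 10.20, against 7.03 in WT LSK/Flt3- and 7.34 in WT LSK/Flt3+ cells. The null arrays lay 0.11 apart and far above both WT arrays. Ms4a3 rose 8.66-fold against LSK/Flt3- cells (log2 difference 3.11 ± 0.35, SE; limma, adjusted p = 0.0321) and 6.96-fold against LSK/Flt3+ cells (2.80 ± 0.35, SE; limma, adjusted p = 0.00931). Its difference ranked 3 of all 19938 genes from the top against LSK/Flt3- cells and 6 against LSK/Flt3+ cells. After quantile normalization the first call was lost (adjusted p = 0.138) although the difference was 3.08.

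Mpo had levels of 12.12 and 12.30 on the null arrays, against 11.35 in WT LSK/Flt3- and 11.47 in WT LSK/Flt3+ cells. Both null arrays were higher, and the difference of their mean was smaller than that of the other 4 genes above wild type. On null replicate 1 alone, Elane was closer to LSK/Flt3+ cells than Mpo, at 0.45 against 0.65 for Mpo. The fold was 1.82 against LSK/Flt3- cells (log2 difference 0.86 ± 0.28, SE; limma, adjusted p = 1) and 1.66 against LSK/Flt3+ cells (0.74 ± 0.28, SE; adjusted p = 1). The 95% intervals of single comparisons, 0.24 to 1.49 and 0.11 to 1.36, leave out 0, but neither difference passed over all genes.

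The 3 serine protease genes lay in the same order over the arrays. Ctsg had levels of 10.27 and 10.73 on the null arrays, against 8.75 in WT LSK/Flt3- and 9.20 in WT LSK/Flt3+ cells. Prtn3 had levels of 7.86 and 8.63 in null cells, against 6.55 in WT LSK/Flt3- and 6.97 in WT LSK/Flt3+ cells. Elane had levels of 6.61 and 7.77 in null cells, against 5.80 in WT LSK/Flt3- and 6.16 in WT LSK/Flt3+ cells. In each of the 3, both null arrays lay above both WT arrays, with null replicate 2 the highest and WT LSK/Flt3- the lowest.

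Against WT LSK/Flt3- cells, the log2 difference was 1.75 ± 0.36 for Ctsg (SE; 3.35-fold; limma, adjusted p = 0.403), 1.69 ± 0.41 for Prtn3 (SE; 3.24-fold; adjusted p = 0.717) and 1.39 ± 0.47 for Elane (SE; 2.62-fold; adjusted p = 1). Against WT LSK/Flt3+ cells it was 1.30 ± 0.36 for Ctsg (SE; adjusted p = 0.429), 1.27 ± 0.41 for Prtn3 (SE; adjusted p = 0.735) and 1.03 ± 0.47 for Elane (SE; adjusted p = 1). None of these passed over all genes. By size alone, Ms4a3, Ctsg and Prtn3 were at least 2-fold higher on both null arrays than in LSK/Flt3- cells, which held for 0.251% of all genes. Ms4a3 and Ctsg were at least 2-fold higher on both than in LSK/Flt3+ cells, with 0.261% of all genes. On null replicate 2 alone, 4 genes, Ms4a3, Elane, Prtn3 and Ctsg, were at least 2-fold above each WT array, with 0.667% of all genes that far above LSK/Flt3- and 0.567% above LSK/Flt3+ cells. With the arrays shifted to a common median, only Ms4a3 of the 6 genes was 2-fold above LSK/Flt3+ cells on both null arrays.

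**Figure D2:**
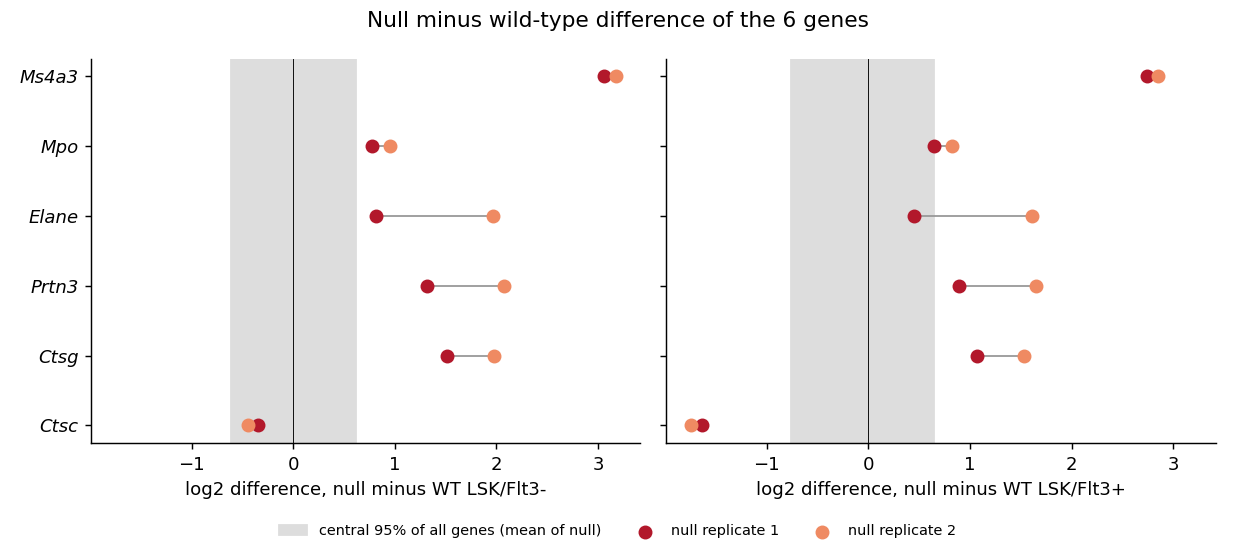
Log2 difference of each of the 6 genes on null replicates 1 and 2 from wild-type (WT) LSK/Flt3- cells on the left and from WT LSK/Flt3+ cells on the right. The grey band holds the central 95% of all 19938 genes for the mean of the null arrays, from -0.62 to 0.62 on the left and from -0.76 to 0.64 on the right. Ctsc lies within the band on the left, at -0.35 and -0.45, and below it on the right, at -1.64 and -1.74.

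The null arrays themselves differed for the proteases. Null replicate 2 was above null replicate 1 by 1.16 for Elane, 0.76 for Prtn3 and 0.46 for Ctsg on the log2 scale, while for the median gene this difference was -0.14. Elane thus stood at the 99.1 percentile of all genes for this difference, Prtn3 at 96.6 and Ctsg at 91.3. For Mpo, Ms4a3 and Ctsc the replicates differed by 0.18, 0.11 and -0.10. Elane was 0.81 above WT LSK/Flt3- cells on null replicate 1 and 1.97 above on replicate 2, and against LSK/Flt3+ cells 0.45 and 1.61. The basophil protease gene Mcpt8, which lies 2 places from Ctsg on chromosome 14, had levels of 7.73 and 9.20 on the same null arrays, against 7.01 in WT LSK/Flt3- and 9.04 in WT LSK/Flt3+ cells.

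Prtn3 and Elane are direct neighbours on chromosome 10 and are read in the same direction, and their promoters are shown because these genes had close profiles over the arrays. Ms4a3 is shown as the gene that rose, and Ctsg as the third protease, which lies on another chromosome. The sequences are from RefSeq on GRCm38.p6, 250 bases before to 50 bases after the start site, 5′ to 3′ in the direction of the gene. All 6 genes had an entry. Capitals mark matches on either strand to GAGGAA, the core that PU.1 binds, AACNG for MYB, TTNNGNAA for C/EBP and TGTGGT for RUNX, factors known to act in granulocyte progenitors. Prtn3 lies at chr10:79879417-79879716 on the plus strand, Elane at chr10:79886062-79886361 on the plus strand, Ctsg at chr14:56102525-56102824 on the minus strand and Ms4a3 at chr19:11640802-11641101 on the minus strand.
Prtn3: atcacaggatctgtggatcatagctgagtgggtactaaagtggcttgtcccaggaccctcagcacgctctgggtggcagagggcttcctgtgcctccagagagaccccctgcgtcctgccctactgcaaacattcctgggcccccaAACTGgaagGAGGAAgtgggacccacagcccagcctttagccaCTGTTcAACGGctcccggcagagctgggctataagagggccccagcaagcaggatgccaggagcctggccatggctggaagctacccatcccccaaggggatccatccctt
Elane: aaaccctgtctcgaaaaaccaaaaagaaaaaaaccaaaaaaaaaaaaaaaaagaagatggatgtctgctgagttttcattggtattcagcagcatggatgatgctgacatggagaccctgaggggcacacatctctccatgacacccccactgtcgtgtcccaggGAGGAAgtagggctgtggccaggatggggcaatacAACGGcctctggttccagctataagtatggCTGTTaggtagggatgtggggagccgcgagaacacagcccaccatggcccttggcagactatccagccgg
Ctsg: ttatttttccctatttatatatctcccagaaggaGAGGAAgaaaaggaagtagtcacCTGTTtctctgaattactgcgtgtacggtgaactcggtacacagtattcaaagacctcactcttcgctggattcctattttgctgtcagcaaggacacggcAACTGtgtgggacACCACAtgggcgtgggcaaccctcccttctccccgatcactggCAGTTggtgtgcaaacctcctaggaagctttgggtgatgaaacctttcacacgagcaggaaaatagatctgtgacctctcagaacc
Ms4a3: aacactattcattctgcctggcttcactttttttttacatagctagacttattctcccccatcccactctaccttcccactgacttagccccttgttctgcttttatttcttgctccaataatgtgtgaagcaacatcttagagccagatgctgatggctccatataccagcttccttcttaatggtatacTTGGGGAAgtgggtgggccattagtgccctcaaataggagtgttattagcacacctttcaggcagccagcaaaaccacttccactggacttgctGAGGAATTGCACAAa

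Counting the first transcribed base as 0, GAGGAA began at -95 in Prtn3 and at -85 in Elane, within a run of 9 shared bases, ggaggaagt, that 0.600% of 19177 promoters of measured genes also hold on the same strand. A run of 8, gctataag, began at -34 in Prtn3 and at -33 in Elane and was in 0.235% of the promoters. Between them, AACGG began at -55 in Prtn3 and at -50 in Elane. Prtn3 and Elane also shared 2 other runs of 9 bases, tgtcccagg at -205 in Prtn3 and at -94 in Elane, and cacagccca at -81 in Prtn3 and at 12 in Elane, so the shared runs do not lie in 1 order in both promoters. GAGGAA was in the promoters of all 6 genes, Ctsc included, and in 27.0% of the 19177 promoters. In Ms4a3 it began at 35, directly before TTGCACAA at 41, a match to the C/EBP letters that does not overlap it. AACNG was in 5 of the 6, all but Ms4a3, but 78.8% of all promoters hold it. TTNNGNAA was in 1 of the 6, Ms4a3, with 36.0% of all promoters, and TGTGGT in 1, Ctsg, with 14.2%. No match shown overlaps another. Only the Prtn3 and Elane promoters were searched for shared runs. The shares are of each word, and how often 2 promoters share some run of this length was not tested. A match describes letters and not a bound site.

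Ctsc went the other way. It had levels of 7.70 and 7.59 on the null arrays, against 8.04 in WT LSK/Flt3- and 9.34 in WT LSK/Flt3+ cells. The null arrays lay together, a little under LSK/Flt3- cells and well under LSK/Flt3+ cells. The log2 difference from LSK/Flt3- cells was -0.40 ± 0.36 (SE; limma, adjusted p = 1), with a 95% interval from -1.19 to 0.40 that includes 0. From LSK/Flt3+ cells it was -1.69 ± 0.36 (SE; adjusted p = 0.151), 3.23-fold lower in null cells, and each null array was at least 2-fold lower, as held for 1.08% of all genes. With robust estimation of the spread this difference passed (adjusted p = 0.0494).

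The WT LSK/Flt3+ array, which has the highest Ctsc level, also had the highest summed level of macrophage genes. Of 13 measured monocyte and macrophage genes, 13 were higher in WT LSK/Flt3+ than in WT LSK/Flt3- cells, as were 56.7% of all genes. The median log2 difference was 1.25, against 0.04 over all genes. Summed on the linear scale, the list came to 811 and 974 on the null arrays, against 533 in LSK/Flt3- and 1980 in LSK/Flt3+ cells. The list holds Ccr2, the monocyte chemokine receptor gene, which was higher on both null arrays, with levels of 8.28 and 9.10 in null cells, against 5.69 in LSK/Flt3- and 6.54 in LSK/Flt3+ cells. Without it the sums were 501 and 426 on the null arrays, against 482 in LSK/Flt3- and 1887 in LSK/Flt3+ cells. The macrophage mannose receptor gene Mrc1 had levels of 4.46 and 4.53 in null cells, against 4.70 in LSK/Flt3- and 8.62 in LSK/Flt3+ cells, and the complement gene C1qc had 3.59 and 4.05 in null cells, against 4.89 in LSK/Flt3- and 8.18 in LSK/Flt3+ cells. Both fell against LSK/Flt3+ cells (limma, adjusted p = 0.000515 for each), as did Adgre1, Cd74 and Ly86, where 0.281% of all genes did. Against LSK/Flt3- cells 0 of the list passed. At an unadjusted p under 0.05, 1 was higher and 1 lower there (1.1% and 1.3% of all genes). The part of these macrophage genes in the Ctsc difference was not tested. Lyz2, the lysozyme gene of neutrophils and macrophages, was likewise highest in LSK/Flt3+ cells, with 7.37 and 7.59 in null cells, against 7.64 in LSK/Flt3- and 9.04 in LSK/Flt3+ cells.

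Between the WT fractions all 6 genes were higher in LSK/Flt3+ than in LSK/Flt3- cells, as were 56.7% of all genes. With 1 array each they have no spread of their own. With the spread taken from the null pair, a limma test added after the values were seen, 0 of the 6 passed (adjusted p = 1 for each; 0.0602% of all genes called higher), and at an unadjusted p under 0.05 Ctsc was higher, with 1.24% of all genes. The log2 differences were 0.32 for Ms4a3, 0.13 for Mpo, 0.36 for Elane, 0.42 for Prtn3, 0.45 for Ctsg and 1.29 for Ctsc. Only Ctsc of the 6 was at least 2-fold higher, as were 0.923% of all genes. The median of the 6 was 0.39, against 0.04 over all genes. For the 5 genes other than Ctsc, both null arrays had the highest levels, WT LSK/Flt3+ cells came next and WT LSK/Flt3- cells were lowest. The WT fractions lay closer to each other than the null replicates did for Mpo, Elane, Prtn3 and Ctsg, so that step does not exceed the spread between replicates. For Ms4a3 the null replicates were the closer pair, and for Ctsc the WT fractions lay far apart.

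**Figure D3:**
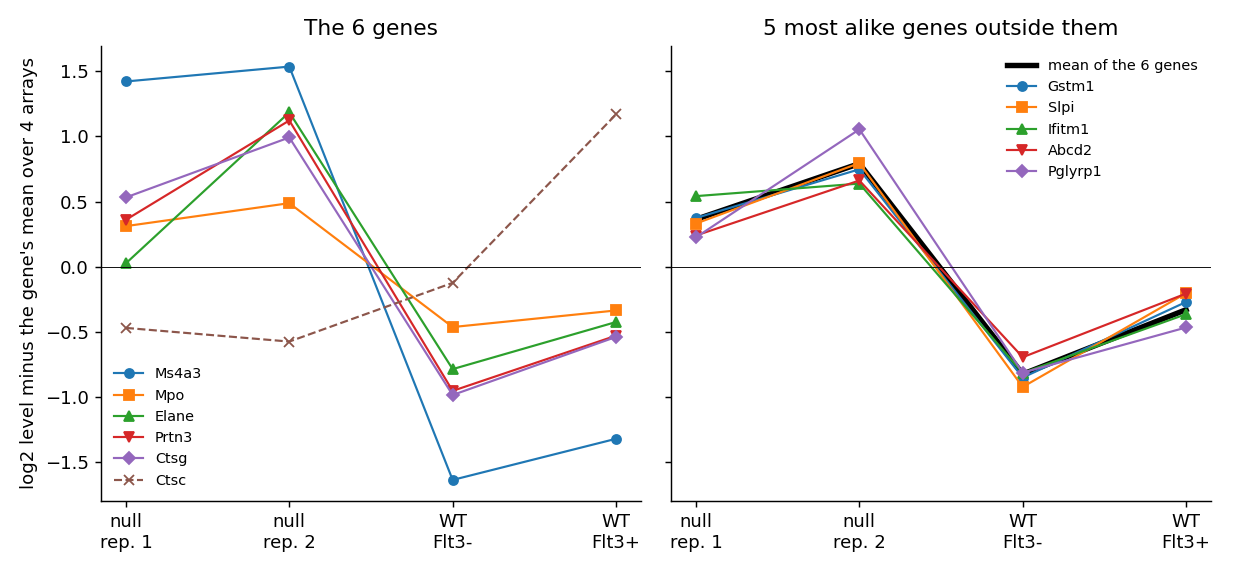
Log2 level on each array minus the mean of that gene over the 4 arrays, for the 6 genes on the left and for the 5 genes most like their mean profile on the right. Arrays are null replicates 1 and 2, wild-type (WT) LSK/Flt3- and WT LSK/Flt3+, and lines only join the points of a gene. Ctsc, dashed, is the gene of the 6 that is highest in WT LSK/Flt3+ cells.

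Measured as the distance between log2 levels over the 4 arrays, each gene centred on its own mean, Prtn3 and Ctsg were the closest pair of the 6 genes, at 0.22, followed by Elane and Prtn3 at 0.39 and Elane and Ctsg at 0.59. Mpo lay at 0.78 to 0.83 from the proteases and had smaller differences, and Ms4a3 lay at 1.46 to 1.90 from them and had larger ones. Ctsc lay at 2.03 to 4.06 from the other members. Among the 8418 genes with a mean level of at least 6, the 5 outside the list most like its mean profile were Gstm1 (distance 0.08), Slpi (0.16), Ifitm1 (0.24), Abcd2 (0.25) and Pglyrp1 (0.33). Slpi encodes an inhibitor of elastase and cathepsin G, and Pglyrp1 a bactericidal protein of neutrophil granules. Slpi had levels of 7.47 and 7.94 in null cells, against 6.22 in LSK/Flt3- and 6.94 in LSK/Flt3+ cells. Pglyrp1 had 7.39 and 8.22 in null cells, against 6.35 in LSK/Flt3- and 6.70 in LSK/Flt3+ cells. The 3 genes most like Ms4a3 were the lymphocyte GTPase gene Gimap4 (0.44) and the small nucleolar RNA genes Snora73b (0.53) and Snora73a (0.73). The mean profile of the 6 genes includes Ctsc, which was lower on both null arrays. The 5 most alike genes were not matched to the list without Ctsc. The distance compares arrays only and gives no measure of chance.

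Other genes of the granule pathway had medians nearer that of all genes. Of 15 other measured genes of primary granule content, 0 passed limma in either comparison, and their median log2 difference from WT LSK/Flt3- cells was 0.14. At an unadjusted p under 0.05, 2 were higher and 0 lower in that comparison (1.1% and 1.3% of all genes). Taken singly, null replicate 1 gave a median of 0.0014 for the list and null replicate 2 gave 0.36. Against LSK/Flt3+ cells the list lay lower, with a median of -0.18 and 4 of 15 higher (56.9% of all genes). At an unadjusted p under 0.05, 0 were higher and 3 lower there (1.13% and 2.31% of all genes). Those at least 2-fold higher on both null arrays than LSK/Flt3- cells were Prss57 and Cd68, with 0.251% of all genes that far above. Prss57, a further serine protease of azurophil granules, had levels of 6.29 and 6.60 in null cells, against 5.23 in LSK/Flt3- and 6.02 in LSK/Flt3+ cells. Cd68, a membrane protein of granules and lysosomes, had 8.02 and 8.38 in null cells, against 6.95 in LSK/Flt3- and 8.54 in LSK/Flt3+ cells, so that it was not above LSK/Flt3+ cells. Among the lysosomal hydrolases of the list, Gusb was at a log2 difference of 0.08 from LSK/Flt3- cells and Man2b1 at 0.44. Of 18 genes for packing, processing and inhibiting granule enzymes, 0 passed limma, and the median difference from LSK/Flt3- cells was 0.16. In that comparison 1 was higher and 1 lower at an unadjusted p under 0.05 (1.1% and 1.3% of all genes). Slpi was the one at least 2-fold higher on both null arrays (1.49), while Srgn, the proteoglycan core that holds the proteases in granules, was at 0.36 and the protease inhibitor Serpinb1a at -0.09.

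Relatives of the 6 genes were set beside them. Among 15 other granule serine proteases, 0 passed limma. At an unadjusted p under 0.05, 4 were higher and 0 lower than in LSK/Flt3- cells (1.1% and 1.3% of all genes). The median difference was 0.21 from LSK/Flt3- and -0.01 from LSK/Flt3+ cells. Gzmb, which encodes granzyme B, and Prss57 were at least 2-fold higher on both null arrays than in LSK/Flt3- cells (0.251% of all genes). Gzmb had levels of 6.07 and 6.43 in null cells, against 4.72 in LSK/Flt3- and 4.59 in LSK/Flt3+ cells. Its log2 difference from LSK/Flt3- cells was 1.53 (limma, adjusted p = 0.526). Among 12 other cathepsins the median was -0.09 from LSK/Flt3- and -0.31 from LSK/Flt3+ cells, and 0 passed limma. At an unadjusted p under 0.05, 0 were higher in either comparison. Lower were 1 against LSK/Flt3- cells (1.3% of all genes) and 5 against LSK/Flt3+ cells (2.31% of all genes). The one against LSK/Flt3- cells was Ctse, an aspartic protease, with levels of 5.54 and 7.54 in null cells, against 9.37 in LSK/Flt3- and 8.76 in LSK/Flt3+ cells. Among 15 other Ms4a genes the median was -0.09 and 0 passed limma against LSK/Flt3- cells. At an unadjusted p under 0.05, 1 was higher and 2 lower there (1.1% and 1.3% of all genes). Against LSK/Flt3+ cells 2 of the Ms4a genes fell, where 0.281% of all genes did. They were Ms4a7 (log2 difference -4.11, limma, adjusted p = 0.000515) and Ms4a6b (-2.41, adjusted p = 0.0254), both known from macrophages or other leukocytes. Among the other heme peroxidases, Epx, Lpo and Pxdn differed from LSK/Flt3- cells by -0.43, 0.19 and 0.35, and none passed, also at an unadjusted p under 0.05.

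**Figure D4:**
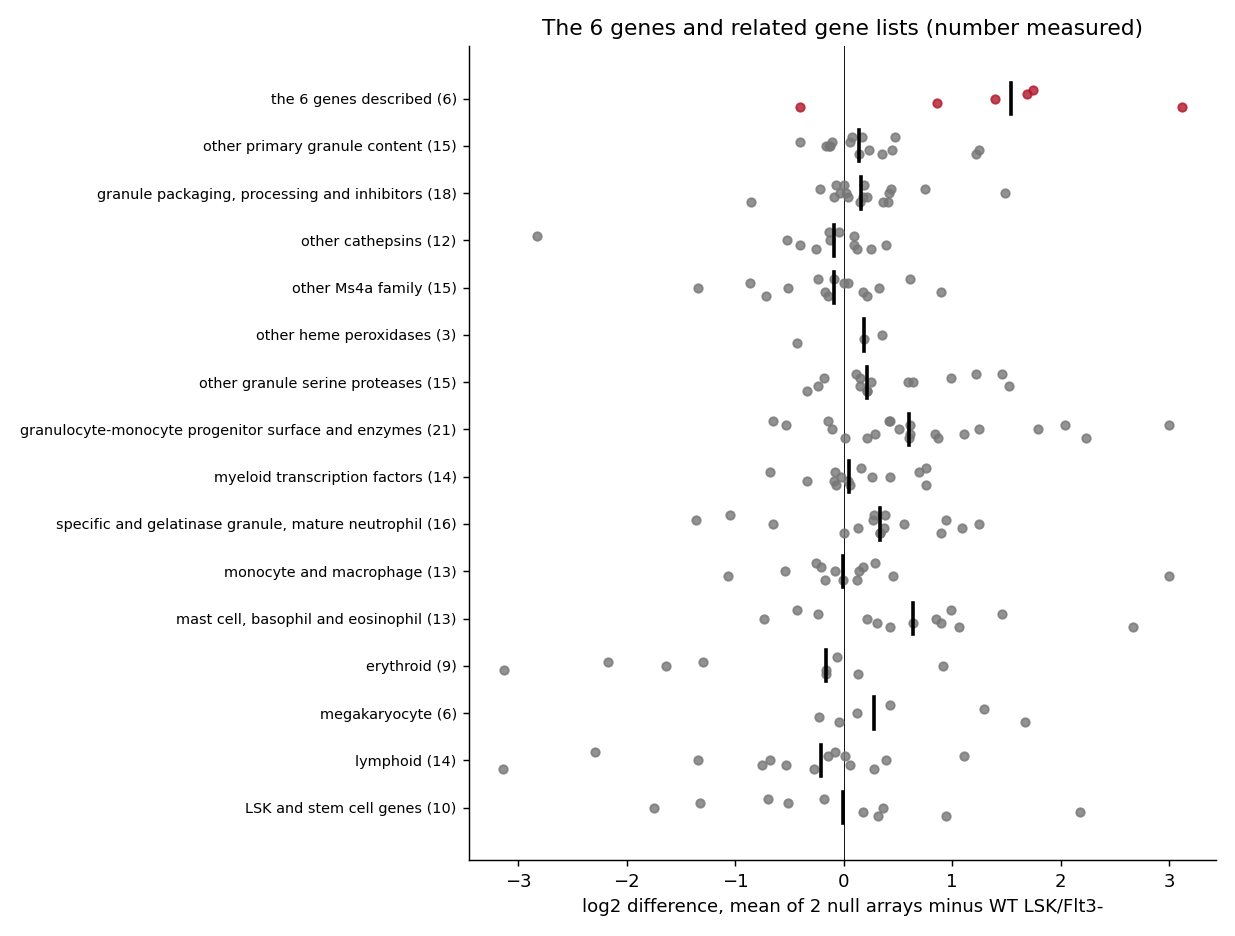
Log2 difference of the mean of the 2 null arrays from wild-type (WT) LSK/Flt3- cells for the 6 genes (red) and for the genes of 15 other lists (grey). Each point is a gene, spread vertically only to avoid overlap, the black bar is the median and the number measured is in brackets. Of the 15 lists, that of mast cell, basophil and eosinophil genes has the highest median, 0.64, followed by granulocyte-monocyte progenitor genes at 0.60.

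Of 21 measured surface and enzyme genes of granulocyte-monocyte progenitors, 17 were higher in null than in WT LSK/Flt3- cells, where 65.0% of all genes were, with a median log2 difference of 0.60. Against LSK/Flt3+ cells 12 were higher, where 56.9% of all genes were, with a median of 0.26. Against LSK/Flt3- cells 0 passed limma, with 7 higher and 0 lower at an unadjusted p under 0.05 (1.1% and 1.3% of all genes). On both null arrays 5 genes were at least 2-fold higher than in LSK/Flt3- cells, as held for 0.251% of all genes. Among them were the chemokine receptor gene Ccr2 (3.0), the first heme synthesis enzyme gene Alas1 (2.23) and the annexin gene Anxa3 (2.04). The others were the cytokine receptor chain gene Csf2rb (1.79) and the membrane protein gene Igsf6 (1.25). Against LSK/Flt3+ cells, 2 of the 21 fell, where 0.281% of all genes did. These were the macrophage colony-stimulating factor receptor gene Csf1r (-2.34, limma, adjusted p = 0.0250) and Cd33 (-2.53, adjusted p = 0.0159). At an unadjusted limma p under 0.05, 4 of the 21 were higher and 3 lower in that comparison (1.13% and 2.31% of all genes). These lists were chosen with earlier results known, and their counts are a description.

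Transcription factor genes of granulocyte progenitors were measured too. Of 14, 0 passed limma in either comparison, with 0 higher and 0 lower than LSK/Flt3- cells at an unadjusted p under 0.05, and the median difference from LSK/Flt3- cells was 0.05. Cebpa, which is needed to form granulocyte-monocyte progenitors, had levels of 7.61 and 7.74 in null cells, against 6.92 in LSK/Flt3- and 7.74 in LSK/Flt3+ cells, so that null replicate 2 was level with LSK/Flt3+ cells. Runx1 had 9.30 and 9.20 in null cells, against 8.49 in LSK/Flt3- and 8.90 in LSK/Flt3+ cells. Spi1, which encodes PU.1, was at a log2 difference of 0.16 and Myb at -0.08 from LSK/Flt3- cells, while Egr1 and Irf8, factors of the monocyte branch, were at -0.68 and -0.34. Irf8 was at -0.95 on null replicate 1 and 0.27 on replicate 2, so its direction differed between the null arrays. At an unadjusted limma p under 0.05 against LSK/Flt3+ cells, 0 of the 14 were higher and 1, Egr1, was lower (1.13% and 2.31% of all genes). The log2 difference of Egr1 was -1.35 there, with -1.64 on null replicate 1 and -1.07 on replicate 2.

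Markers of later neutrophil stages were examined beside the primary granule genes. Of 16 genes of secondary and tertiary granules and mature neutrophils, 13 were higher in null than in LSK/Flt3- cells (65.0% of all genes) with a median difference of 0.33, and 12 were higher than in LSK/Flt3+ cells (56.9% of all genes) with a median of 0.41. By limma 0 passed in either comparison. At an unadjusted p under 0.05, 3 were higher and 2 lower against LSK/Flt3- cells (1.1% and 1.3% of all genes). Against LSK/Flt3+ cells 2 were higher and 0 lower (1.13% and 2.31% of all genes). Summed on the linear scale the list came to 805 and 816 on the null arrays, against 1024 in LSK/Flt3- and 623 in LSK/Flt3+ cells. Ltf, the secondary granule gene of lactoferrin, had levels of 4.55 and 4.82 in null cells, against 4.35 in LSK/Flt3- and 4.45 in LSK/Flt3+ cells. Ly6g, which marks neutrophils, had 3.71 and 4.24 in null cells, against 3.84 in LSK/Flt3- and 3.93 in LSK/Flt3+ cells, and all these values lay below the array medians. The calgranulin gene S100a8 lay at least 2-fold under LSK/Flt3- cells on each null array, with 6.59 and 7.07 in null cells, against 8.19 in LSK/Flt3- and 6.12 in LSK/Flt3+ cells. Of 13 mast cell, basophil and eosinophil genes, 10 were higher than in LSK/Flt3- cells (65.0% of all genes), with a median of 0.64, led by the IgE receptor gene Fcer1a at 2.66. Against LSK/Flt3+ cells 7 were higher (56.9% of all genes), with a median of 0.09. By limma 0 passed in either comparison. At an unadjusted p under 0.05, 5 were higher and 0 lower against LSK/Flt3- cells (1.1% and 1.3% of all genes). Against LSK/Flt3+ cells 3 were higher and 0 lower (1.13% and 2.31% of all genes). That list was summed to 1057 and 1997 on the null arrays, against 942 in LSK/Flt3- and 1485 in LSK/Flt3+ cells, so it too was higher on null replicate 2. So were the erythroid list, with 2839 and 5865 on null replicates 1 and 2, against 6497 in LSK/Flt3- and 4735 in LSK/Flt3+ cells, and the megakaryocyte list, with 635 and 2047 on the null arrays, against 844 in LSK/Flt3- and 937 in LSK/Flt3+ cells. The part of these lists in the protease values was not tested.

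Lymphoid genes lay mostly lower in null cells. Of 14 lymphoid genes, 5 were higher in null than in LSK/Flt3- cells, where 65.0% of all genes were. The median difference was -0.21, with -0.03 on null replicate 1 and -0.29 on replicate 2. By limma 0 passed there, with 0 higher and 5 lower at an unadjusted p under 0.05 (1.1% and 1.3% of all genes). Against LSK/Flt3+ cells 3 fell, Dntt, Satb1 and Il7r, where 0.281% of all genes did. Flt3 RNA had levels of 7.84 and 7.02 in null cells, against 9.18 in LSK/Flt3- and 10.07 in LSK/Flt3+ cells, and passed in the second comparison (adjusted p = 0.0317). Summed levels of the lymphoid list were 1050 and 1681 on the null arrays, against 2006 in LSK/Flt3- and 3481 in LSK/Flt3+ cells. Of 10 measured genes of LSK and stem cells, the surface receptor gene Slamf1 rose against LSK/Flt3+ cells, where 0.0351% of all genes did. Its log2 difference was 3.27 there (limma, adjusted p = 0.00506) and 2.18 from LSK/Flt3- cells (adjusted p = 0.174). The transcription factor gene Mecom was at -1.32 from LSK/Flt3- and -0.54 from LSK/Flt3+ cells. Of 9 erythroid genes, 2 were higher than in LSK/Flt3- cells (65.0% of all genes), with a median of -0.17 and Rhag at -2.17. Of 6 megakaryocyte genes 4 were higher, near the share of all genes, with a median of 0.28. From LSK/Flt3- cells, Itga2b was at -0.23, Pf4 at -0.04, Vwf at 1.30 and Ppbp at 1.67. Pf4 was at -1.41 on null replicate 1 and 1.32 on replicate 2. By limma 0 of either list passed. These medians rested on the array: on null replicates 1 and 2 the erythroid median was -0.999 and 0.02, and the megakaryocyte median 0.15 and 1.01. At an unadjusted p under 0.05, 1 erythroid gene was higher and 4 lower, and 2 megakaryocyte genes were higher and 0 lower. Of all genes, 1.1% were higher and 1.3% lower against LSK/Flt3- cells at this limit. The mix of cells in each sort was not tested.

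The genes next to the 6 on their chromosomes were compared, 2 on each side, where a single-gene probe set named them. Beside Prtn3 and Elane, Plppr3 lay at a log2 difference of 0.49 from WT LSK/Flt3- cells. Beside Mpo, the related peroxidase gene Lpo was at 0.19, Mks1 at 0.42 and Tspoap1 at 0.23. Beside Ms4a3, the IgE receptor chain gene Ms4a2 was at 0.90, with 5.89 and 6.07 in null cells, against 5.09 in LSK/Flt3- and 5.65 in LSK/Flt3+ cells, and Oosp2 and Oosp1 were at 0.41 and 0.25. Beside Ctsg, Mcpt8 was at 1.46, Gzme at 0.08 and Gzmd at 0.38. Of these neighbours, Prtn3 apart, none was 2-fold from LSK/Flt3- cells on both null arrays, and none passed limma. The neighbours of Ctsc were not analysed here.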

How the data were processed

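Per the labels' protocols, RNA of the sorted cells was purified with a PerfectPure kit and biotin-labelled, and standard Affymetrix methods were used. The values the authors deposited are log2 levels of probe sets. The submitters' processing notes name RMA and affy 1.23, and no source used here names a genome build. Array medians are unequal, so the scaling of the values is not settled. Of 35556 probe sets, 21789 had a single symbol in the platform annotation, giving 19938 genes, each with its highest-mean probe set. All 4 arrays entered 1 fit in limma 3.58.1 (R 4.3.3) with 3 groups and a mean-dependent prior, two-sided, with Benjamini-Hochberg adjustment over all genes at 0.05. Only the null pair gives a spread (1 residual degree of freedom, plus 9.01 from the prior), and the fit takes it to hold for the single WT arrays too. The 95% intervals use the same spread and are not adjusted. The number of arrays limits the precision, with a median SE of 0.34. The 6 genes and 15 other lists (201 genes named, 183 measured) were chosen with earlier results of these data known. From each list the text names genes past limma in either comparison or at least 2-fold from LSK/Flt3- cells on both null arrays, otherwise the 2 largest differences each way; also the genes most alike, the neighbours, and, chosen after their values were seen, Lyz2, Gusb, Man2b1, Srgn, Serpinb1a, Spi1, Myb, Ltf, Ly6g, Kit, Hdac3 and Mcpt8. Genes without a single-gene probe set were not analysed here. Alternatives were other summaries of probe sets, normalizations, filters and priors, and each null array left out.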

Additional observations from a re-analysis of the deposited data

How the results depend on the processing

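Of 162 values recomputed under the alternatives, 156 were counted as unchanged and 0 reversed. Unchanged meant the same direction and side of the threshold, or a move smaller than the SD of the null arrays. A count could also differ a little, as 4 for 3 did. Much of this was fixed in advance. A gene with 1 null array left out cannot move past that SD. Each of the 6 genes has 1 probe set, so averaging probe sets cannot change its difference, nor can another prior. The 156 is thus no measure of stability. The count of the 6 genes past limma, 1 in each comparison, was 0 against wild-type LSK/Flt3- cells after quantile normalization and 2 against LSK/Flt3+ cells with robust estimation, which added Ctsc (adjusted p = 0.0494). The adjusted p of Ms4a3 ranged from 0.000322 to 0.138 against LSK/Flt3- and from 0.000394 to 0.0251 against LSK/Flt3+ cells over 7 settings. That of Ctsc against LSK/Flt3+ cells ranged from 0.0494 to 0.235, and that of Ctsg against LSK/Flt3- cells from 0.0852 to 0.502. The count at least 2-fold above LSK/Flt3+ cells, 2 on both null arrays, was 1 with arrays shifted to a common median, and 4 without null replicate 1 and 2 without null replicate 2. Against LSK/Flt3- cells this count was 4 without null replicate 1 and 3 without null replicate 2, where it was 3 on both. The median of the 6 genes was 1.97 without null replicate 1 and 1.06 without replicate 2 against LSK/Flt3- cells, and 1.57 and 0.77 against LSK/Flt3+ cells. Over all genes, limma called 30 higher and 78 lower against LSK/Flt3- cells with arrays shifted to a common median, and 12 and 13 with robust estimation, where 4 and 0 were called as reported; against LSK/Flt3+ cells it called 44 and 228, and 15 and 99, where 7 and 56 were called. Cyclic loess gave 10 and 104 there. The cause of these changes was not tested. Without either null array no residual degree of freedom is left, so limma was not run there. No paired analysis was possible because the wild-type groups have 1 array each and share fewer than 2 replicate numbers with the null group.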
